A study of Dahlia pinnata with 6 samples.

Results

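The 158 contigs described here were the most abundant sources of small RNA in bicolor dahlia petals whose level was similar in the red and the white part of the petal. Contigs are transcripts of a Trinity assembly, each counted by the small RNA reads assigned to it. They were selected on the measured values themselves: the 200 contigs with the highest mean CPM (the count divided by the tabulated reads of its library, times 1000000) over 6 libraries were taken, and those with a ratio of white mean to red mean between 0.67 and 1.5 were kept. The table held 46967 contigs of 27530 Trinity genes and 116 rows with microRNA names. Of the 200 most abundant contigs, 33 had a ratio under the lower limit and 9 a ratio over the upper limit. The abundance of the members and their similarity between the parts are therefore the way they were chosen and not findings.

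The libraries came from Dahlia pinnata of the genotype Yuino, per the labels, grown in a greenhouse with no other treatment named. The red group is the pigmented region of the bicolor petal and the white group the unpigmented region of it, dissected apart, with 3 libraries each. Throughout, a value with ± is the mean and SD of the 3 libraries of a part (n = 3). Both regions carry the same genotype, and whether the libraries of a group came from separate plants is not stated, so the spread between them may be partly technical. The question of the study was whether flavonoids inhibit DCL4 and its 21-nt siRNAs across the petal in general. Tabulated reads per library ranged from 3277753 to 3662222, which are totals of the table and not of the sequencing. No contig was at 0 in red replicate 1, against 11056 to 12764 contigs at 0 in each of the other libraries. The lowest count of a member in any library was 366 reads.

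Plant small RNAs are cut from double-stranded RNA by Dicer-like enzymes. DCL1 releases microRNAs from hairpins, and DCL4 makes siRNAs from long double-stranded RNA, among them trans-acting siRNAs and the siRNAs of post-transcriptional silencing. In bicolor dahlia, silencing of chalcone synthase, the first enzyme of flavonoid synthesis, is known to leave the white part unpigmented. Small RNA libraries also take up fragments of ribosomal, transfer and other structural RNAs, and a count of reads per contig does not separate these from Dicer products. The contigs carry no gene names in the table, so they are named here by their assembly IDs with no function. A Trinity ID gives the read cluster (DN number), the gene within it (c and g numbers) and the isoform (i number).

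A handful of contigs held a large part of the small RNA reads. By mean CPM over the libraries, 4 contigs reached 50% of the contig reads, and 3 Trinity genes did when isoforms were summed. The contig at rank 4, TRINITY_DN1637_c0_g1_i2, was not a member, with a white to red ratio of 110. In single libraries it took 4, 3 and 3 contigs in red replicates 1 to 3, and 5, 3 and 5 in white replicates 1 to 3. The most abundant contig alone took 17.7%, 19.1% and 17.7% of the contig reads in the red libraries and 15.8%, 19.1% and 15.4% in the white ones. The 3 most abundant contigs of each library summed to 50.4% ± 1.8 in the red libraries and 46.9% ± 5.5 in the white ones. The curve then flattened: the 200 most abundant contigs of each library summed to 81.8% ± 0.77 for red and 84.0% ± 1.2 for white, and the 1000 most abundant to 91.3% ± 0.55 and 92.2% ± 0.50. The long tail of the tabulated contigs thus shared a small part of the reads. With the 3 leading contigs set aside, 50% of the remaining contig reads lay in 82 contigs in each red library and in 35, 42 and 37 contigs in white replicates 1 to 3, a ranking that also holds abundant contigs outside the ratio limits.

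The 158 members took 72.2% ± 1.2 of all tabulated red reads and 67.1% ± 2.4 of the white. Their share stood at 71.2%, 73.6% and 71.9% in red replicates 1 to 3. In white replicates 1 to 3 it stood at 66.5%, 69.8% and 65.0%. Each white library lay below each red one. No test is given, because the limits on the ratio of white to red bound this difference. In bulk tissue, fewer cells of a type and less RNA per cell cannot be told apart. The 33 abundant contigs under the lower limit made up 4.72% ± 0.49 of red reads and 2.75% ± 0.21 of white reads, and the 9 over the upper limit 0.747% ± 0.21 and 10.96% ± 1.3. Shares within a library sum to 100%, so they are not independent of each other.

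**Figure D1:**
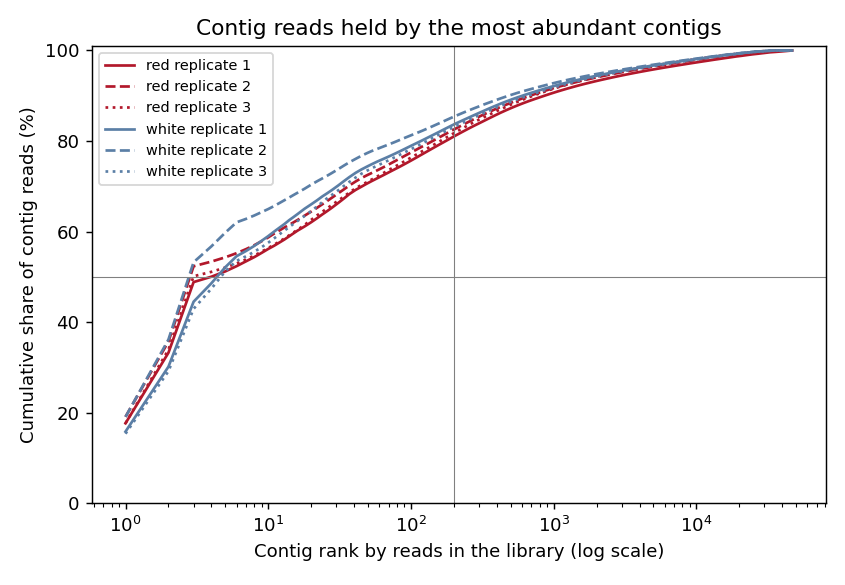
Cumulative share of contig reads (y axis, %) against contig rank within each library (x axis, log scale), with 1 line for each of the 6 libraries and grey lines at 50% of the reads and at rank 200. Red libraries pass 50% at 3 or 4 contigs and white libraries at 3 to 5, and the steep first rise is made by 3 contigs.

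Reads were unequally spread within the members too. The 3 contigs of the cluster DN1364 took 66.5% ± 1.3 of the members' red reads and 67.2% ± 5.4 of their white reads. The 10 most abundant members took 74.7% ± 0.94 and 76.0% ± 3.5 of them. A count of evenly filled contigs that would give the same concentration (the inverse Simpson index) was 6.67 ± 0.25 in red and 6.62 ± 0.95 in white for all 158 members, and 56.1 ± 3.6 and 53.5 ± 4.0 for the 155 members outside DN1364. A gap separated the cluster from the rest. No member had a mean between 10000 and 100000 CPM, 13 members lay between 5000 and 10000 CPM, 30 between 1000 and 5000 CPM, 61 between 500 and 1000 CPM and 51 under 500 CPM. The median member stood at 677.2 CPM and the least abundant at 346.8 CPM.

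DN1364 consisted of 3 contigs in the table, and all 3 were members. TRINITY_DN1364_c0_g1_i1, the most abundant contig of all, had 168184, 182336 and 167745 CPM in red replicates 1 to 3 and 152308, 183366 and 147946 CPM in white replicates 1 to 3. TRINITY_DN1364_c0_g2_i2 had 148503, 158856 and 154609 CPM in the red libraries and 138059, 164302 and 133246 CPM in the white ones. The other isoform of that Trinity gene, TRINITY_DN1364_c0_g2_i1, had 148538, 158658 and 153947 CPM in the red libraries and 138091, 164043 and 132507 CPM in the white ones. All 3 were highest in the libraries numbered 2 of either part, and the ranges of red and white overlapped. Summed, the cluster took 465224, 499850 and 476301 CPM in red libraries and 428457, 511711 and 413699 CPM in white ones, a white to red ratio of 0.939. The direction depended on the scaling, since the fitted log2 difference of white from red after TMM (a scaling that sets aside extreme rows) was 0.07 to 0.09 for the 3 contigs.

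The 2 isoforms of TRINITY_DN1364_c0_g2 split their reads almost evenly. Isoform i2 held 543851 reads against 543978 of i1 in red replicate 1, and 484885 against 484997 in white replicate 1. Its share of the pair ranged from 49.99% to 50.14% over the 6 libraries. The 95% Wilson intervals, which cover counting error only, held an even split in 4 of the 6 libraries and lay above it in red replicate 3 (50.01% to 50.20%) and white replicate 3 (50.04% to 50.24%). How reads that match both isoforms were assigned is not given in the sources used here, so the counts of such isoforms are not separate measurements. The ratio of TRINITY_DN1364_c0_g1_i1 to the sum of both g2 isoforms varied more, from 0.544 in red replicate 3 to 0.574 in red replicate 2.

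After DN1364, the next members came from a few Trinity genes with several near-equal isoforms. TRINITY_DN12207_c1_g1_i1 had 11342, 8729 and 8935 CPM in red replicates 1 to 3 and 8169.6, 7344 and 9800.4 CPM in white. Its sister isoforms i14 and i2 followed it closely, with means of 9288 ± 1576 and 9307 ± 1501 CPM in red libraries and 8315 ± 1303 and 8254 ± 1261 CPM in white ones. Red replicate 1 was the highest red library and white replicate 3 the highest white library for all 3.

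TRINITY_DN122_c1_g2_i3 had 8883, 8048 and 8318 CPM in the red libraries and 11213, 6419 and 9458 CPM in the white ones. The isoforms i12 and i10 had ratios of white to red of 1.06 and 1.12, against 1.07 for i3. The red libraries of these 3 isoforms lay within 5.06% to 5.93% coefficient of variation (CV, the SD as a percentage of the mean). Their white libraries spread to between 25.5% and 26.9%, with white replicate 1 high and white replicate 2 low, and the white range enclosed the red one.

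TRINITY_DN4815_c0_g3_i1 was the least steady of the 10 most abundant members. It had 4407 CPM in red replicate 1, 8614 in red replicate 2 and 5516 in red replicate 3, and 9641, 5518 and 7736 CPM in white replicates 1 to 3. Within red the library numbered 2 was the highest, and within white it was the lowest. The means were 6179 ± 2180 CPM in red libraries and 7632 ± 2063 CPM in white ones, and the groups overlapped. Without red replicate 2 its ratio of white to red would be 1.54 instead of 1.24, outside the limit of the rule.

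**Figure D2:**
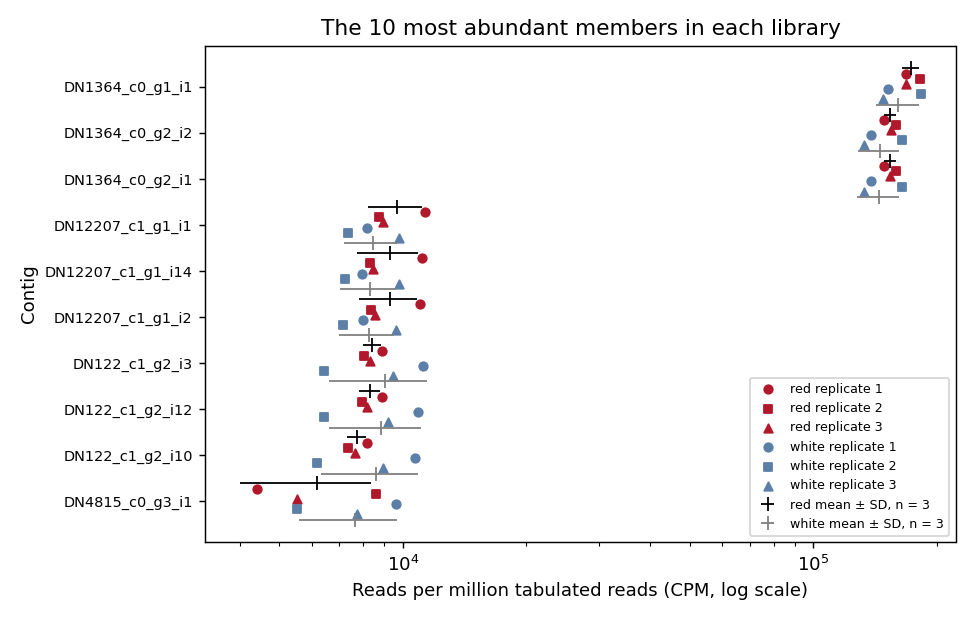
CPM (x axis, log scale) of the 10 most abundant members (y axis) in each library, red in red and white in blue, with the marker shape giving the replicate number and bars giving the mean ± SD of 3 libraries. The DN1364 contigs stand between 132507 and 183366 CPM, apart from the rest, and DN4815_c0_g3_i1 shows the widest scatter.

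Isoforms of the same Trinity gene made up much of the set. The 158 members came from 97 Trinity genes in 87 read clusters. Of these genes, 63 had 1 member, 17 had 2 members and 17 had 3 or more, with at most 5. The 34 genes with 2 or more members held 95 of the 158. In the whole table these 97 genes had 288 isoforms, or 2.97 per gene, against 1.71 per gene over all 27530 Trinity genes. A single isoform in the table was found for 43.3% of the members' genes and for 67.2% of all genes. Members were chosen contig by contig, so a gene with more isoforms had more chances to enter the set. Every contig of the table also had reads in red replicate 1, so isoforms of genes with few reads may be missing from it. Neither contrast is therefore read as a trait of the members' genes. Of the 55 genes with several isoforms in the table, 35 had over 90% of their CPM in members.

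Isoforms within a gene mostly kept their ratio from library to library, and the part that reads matching several isoforms have in this was not tested. In 16 of the 34 genes with several members, the means of all members lay within 1.1-fold of each other, and in 26 of them within 1.5-fold. For the 2 most abundant members of each gene, the first held between 47% and 53% of the pair's reads in every library in 21 of the 34 genes. The ratio of the 2 varied over the 6 libraries by a median CV of 4.23%, against 15.6% for their sum, and it varied less than the sum in 29 of the 34 genes. TRINITY_DN933_c0_g1, with 4 members within 1.02-fold of each other in mean, illustrates it: the share of its first isoform stayed between 49.2% and 52.1%, while the sum of the 2 varied by a CV of 29.5%.

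Read clusters with 3 or more members numbered 19. DN122 held 7 members of 3 Trinity genes, with a summed level of 37252 ± 2735 CPM in red libraries and 38078 ± 8996 CPM in white ones. DN3634 held 6 members of 3 genes, led by TRINITY_DN3634_c0_g1_i7, at 7572 ± 198 CPM in red libraries and 7133 ± 460 CPM in white ones. DN12207 (5 members of 1 gene) had 29815 ± 4449 and 26107 ± 3962 CPM. DN10796 (5 members, led by TRINITY_DN10796_c0_g2_i1) had a summed ratio of white to red of 0.880. For DN933 (5 members, led by TRINITY_DN933_c0_g1_i6) it was 0.799, and the sum ran from 3234 CPM in red replicate 1 to 5829 CPM in red replicate 3. On column totals, the 3 steadiest sums relative to their level were those of DN3634, DN1364 and DN3829 in red. DN933 and DN122 spread most in white. DN9184, DN13289, DN2069 and DN2067 held 4 members each, led by TRINITY_DN9184_c2_g1_i1, TRINITY_DN13289_c0_g1_i5, TRINITY_DN2069_c1_g1_i5 and TRINITY_DN2067_c0_g1_i10, with summed ratios from 0.832 to 0.907. The clusters of 3 members other than DN1364 were DN9204, DN10731, DN3829, DN5020, DN6369, DN8569, DN6642, DN8182 and DN798, led by TRINITY_DN9204_c0_g1_i5, TRINITY_DN10731_c0_g1_i1, TRINITY_DN3829_c0_g1_i17, TRINITY_DN5020_c0_g1_i5, TRINITY_DN6369_c0_g1_i9, TRINITY_DN8569_c0_g1_i2, TRINITY_DN6642_c0_g1_i12, TRINITY_DN8182_c0_g1_i4 and TRINITY_DN798_c0_g1_i9. Their summed ratios ran from 0.804 in DN5020 to 1.45 in DN3829.

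In 4 Trinity genes the limits separated isoforms of the same gene. TRINITY_DN4628_c0_g1 had all 6 of its isoforms among the 200 most abundant contigs. Isoforms i5 and i2 were members with ratios of 1.19 and 1.02, and i12, i9, i7 and i3 had ratios from 1.80 to 3.21. Summed over isoforms, this gene had a ratio of 1.73. TRINITY_DN122_c1_g2 had 10 abundant isoforms, of which 5 were members and the other 5 had ratios from 0.541 to 0.642, all lower in abundance. In TRINITY_DN122_c0_g2, i1 was a member at 0.699, beside i5, whose mean was 81.4 times higher in white than in red, and i4 at 0.569. TRINITY_DN18085_c0_g1 had i1 just inside the lower limit at 0.685 and i2 outside at 0.634. Of the 97 genes, 95 kept a summed ratio inside the limits, and the exceptions were TRINITY_DN4628_c0_g1 and TRINITY_DN122_c0_g2.

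On column totals most members lay on the red side of equality. The ratio of white to red was below 1 in 118 members and above 1 in 40, with a median of 0.886, while with TMM scaling it was below 1 in 85 and above 1 in 73. It was between 0.8 and 1.2 in 111 members, below 0.8 in 37 and above 1.2 in 10. These counts follow the scaling: the median log2 ratio of the members was -0.17 on column totals and -0.02 after TMM. Over all 7001 tested rows it was -0.16 on column totals and -0.01 after TMM. Relative to that common shift the members lay at the centre of the table, which the choice by ratio favours.

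At the rank limit and the lower ratio limit the members graded into their neighbours. The last members by abundance were TRINITY_DN6642_c0_g1_i14 and TRINITY_DN6642_c0_g1_i6 at 348.3 and 346.8 CPM, and the next contigs, TRINITY_DN8941_c0_g1_i1 and TRINITY_DN35944_c0_g1_i1, had 342.6 and 338.4 CPM. Just inside the lower limit were TRINITY_DN10767_c0_g1_i2 and TRINITY_DN13791_c0_g1_i2, at ratios of 0.675 and 0.676. Just outside it were TRINITY_DN9473_c0_g1_i2 at 0.660 and TRINITY_DN3331_c0_g1_i6 at 0.656. The upper limit fell in a gap, since TRINITY_DN3829_c0_g1_i13 and TRINITY_DN3829_c0_g1_i12 lay inside at 1.48 each and TRINITY_DN4628_c0_g1_i7 and TRINITY_DN4981_c2_g1_i1 outside at 1.80 and 1.89.

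**Figure D3:**
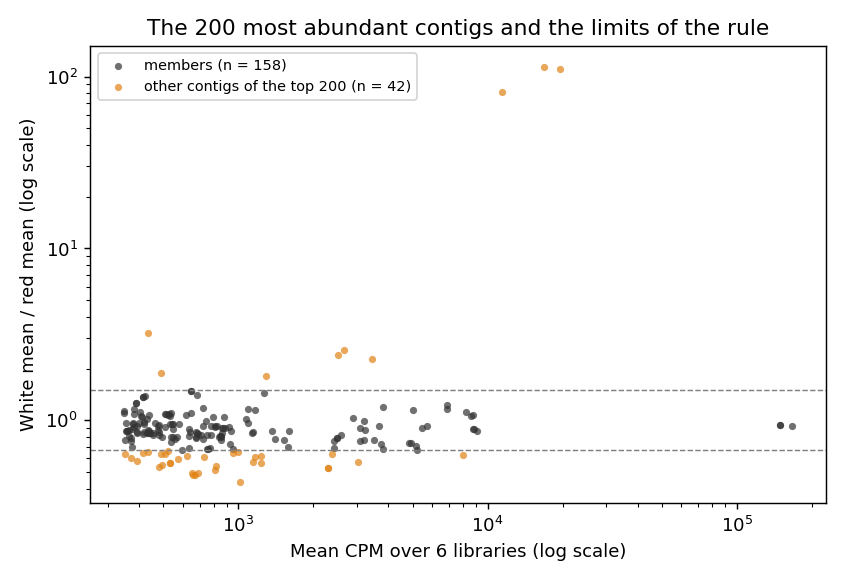
Ratio of white mean to red mean (y axis, log scale) against mean CPM over the 6 libraries (x axis, log scale) for the 200 most abundant contigs, with members in dark grey, the others in orange and dashed lines at 0.67 and 1.5. The 158 members fill the band by construction, 33 contigs lie below it and 9 above it, of which 3 stand far above.

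The spread between libraries of a part was set beside counting error, which is small at these read numbers. The median CV was 11.5% within red and 13.6% within white, against a median counting error of 1.97% and 2.16%. The CV was under 10% in 61 members in red and in 35 in white, and over 30% in 9 members in each part. White had the larger CV in 103 of the 158 on column totals and in 54 with TMM scaling, under which the median CV was 10.1% in red and 7.30% in white. Which part varied more thus turned with the scaling. Over white replicates 1 and 3 alone, on column totals, the median CV was 5.82%. Over all 6 libraries the highest value was at most 2 times the lowest in 134 members and at most 1.5 times in 73.

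On column totals, spread did not follow abundance closely. The 3 DN1364 contigs had a median CV of 3.38% in red and 11.6% in white. They made up 48.0% of red and 45.1% of white reads. A change in them therefore also changes the totals and shows as a smaller change in CPM. Their CV is thus not comparable with that of the other classes, and it was not computed with TMM scaling. The 13 members between 5000 and 10000 CPM had 14.5% and 18.3%, the 30 between 1000 and 5000 CPM had 13.2% and 13.0%, the 61 between 500 and 1000 CPM had 9.84% and 13.3%, and the 51 under 500 CPM had 12.2% and 15.3%. The 42 other abundant contigs had a median CV of 20.9% in red and 15.5% in white, and the next 200 contigs by abundance had 13.7% and 12.9%. A limit on the ratio of means removes some contigs with wide scatter, so these values are given with no test.

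On column totals, on which the order in this paragraph rests, TRINITY_DN3634_c0_g1_i20 was the steadiest member. It had 802.8, 799.3 and 818.5 CPM in red replicates 1 to 3 and 776.4, 701.9 and 760.7 CPM in white. TRINITY_DN18660_c0_g1_i2 (549.9 ± 12.5 CPM in red and 439.5 ± 31.6 CPM in white) and TRINITY_DN3634_c0_g1_i3 (833.0 ± 42.1 and 772.8 ± 49.9 CPM) followed. Pooled over the parts, their CVs were 3.83%, 5.33% and 5.80%. At the other end, TRINITY_DN10011_c0_g3_i3 had 382.3, 259.7 and 526.3 CPM in the red libraries and 512.2, 108.6 and 402.4 CPM in white. It was lowest in the library numbered 2 of both parts, and it was the 1 member whose highest library was more than 3 times its lowest, at 4.84 times. The next widest were TRINITY_DN20008_c0_g1_i1 and TRINITY_DN4815_c0_g3_i2, with pooled CVs of 40.0% and 35.0%.

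**Figure D4:**
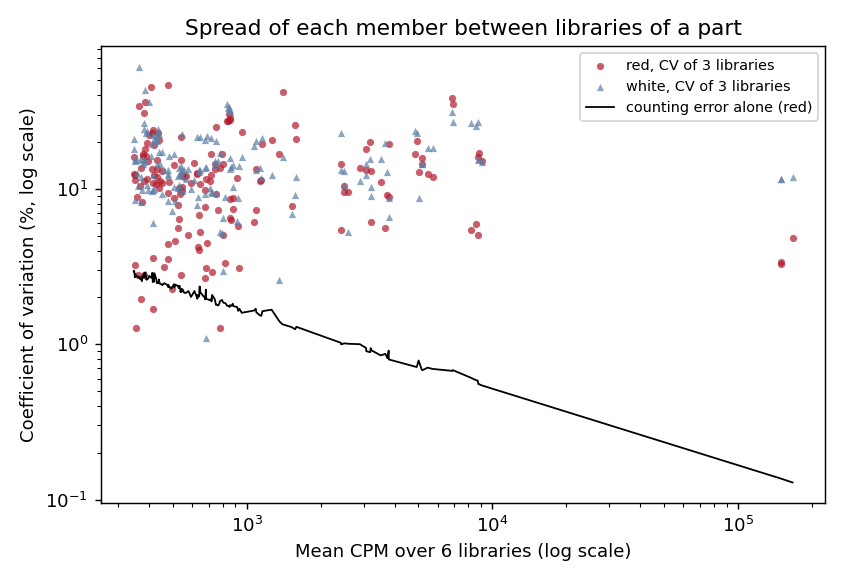
CV of each member over the 3 libraries of red (circles) and of white (triangles) on the y axis (%, log scale) against its mean CPM (x axis, log scale), with a line for the CV that counting error alone gives. Nearly all points lie above the line, and on these column totals the median is 11.5% in red and 13.6% in white, an order that turns with TMM scaling.

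Ranks by abundance moved between libraries for some members. TRINITY_DN20008_c0_g1_i1 ranged from rank 92 in white replicate 2 to rank 296 in red replicate 1, and TRINITY_DN4815_c0_g3_i2 from rank 5 to rank 22. Of the 158 members, 130 were among the 200 most abundant contigs of every library and 157 among the 300 most abundant, the exception being TRINITY_DN10011_c0_g3_i3, which fell to rank 420. Pearson's r of log2 CPM across the members ranged from 0.966 to 0.993 between pairs of libraries. These values rest on the wide range of abundance led by DN1364, and contigs of 1 assembly can share reads, so no p is given. The pair with the highest r was white replicates 1 and 3, and the pair with the lowest was red replicate 3 and white replicate 2.

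White replicate 2 stood apart among the white libraries. Its TMM factor, set over all tested rows, was 0.845, against 0.985 and 1.015 in white replicates 1 and 3. The counts of members below were not taken over all tested rows, so they are not read as a trait of the members. DN1364 took 51.2% of the reads of white replicate 2, against 42.8% and 41.4% in white replicates 1 and 3. The other 155 members took 18.6%, against 23.7% and 23.6%. In CPM on column totals, 135 of these 155 members were lowest among the white libraries in white replicate 2. With the DN1364 reads taken out of the totals this fell to 79 of 155, and with TMM it was 80 of 155. In red the same direction was milder: red replicate 2 had the largest DN1364 share, 49.985% against 46.5% and 47.6%, and was the lowest red library for 80 of the 155 members on column totals and for 49 without DN1364. Without DN1364 in the totals, the median CV of the 155 members was 10.4% in red and 7.17% in white.

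**Figure D5:**
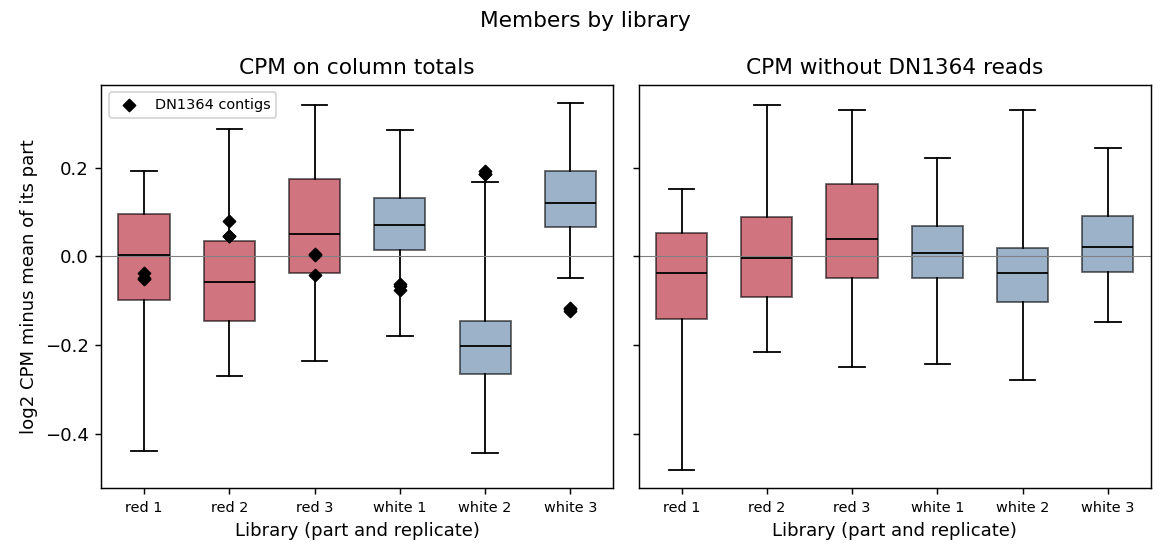
Log2 CPM of each member minus its mean in its part (y axis) by library (x axis), on column totals (left) and with DN1364 reads taken out of the totals (right); boxes show the median and quartiles of the 155 members outside DN1364, whiskers the 5th to 95th percentiles, and diamonds the DN1364 contigs. On column totals the median of white replicate 2 is -0.20 with the DN1364 contigs above 0, and without DN1364 it is -0.04.

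Whether the members differed by replicate number was tested in a way the rule did not use, with edgeR's quasi-likelihood test of the replicate number in a fit that also held the part. All 158 members were tested, since each passed the filter on low counts. The test called 3 of the 158 members at an adjusted p under 0.05, or 1.90%, against 1.91% of all 7001 tested rows (134 rows). At an unadjusted p under 0.05 it called 23 members, or 14.6%, against 13.2% of all rows. In this fit the members' shares were near those of the table as a whole. Other settings differed, in both directions, with the members' share more often the higher one. With library totals 3 members were called (1.90%, against 1.27% of rows), and DESeq2 called 3 (against 1.01% of rows). Summed by Trinity gene, 3 of the members' 97 genes were called, against 1.38% of 6399 rows. Without the libraries numbered 3 there were 2 members, or 1.27%, against 0.615% of 7476 rows. Without the libraries numbered 2 the test called 9 members, or 5.70%, against 1.72% of 7390 rows. With no filter it called 11, or 6.96%, against 0.518% of 47083 rows, most of which have few reads. At a minimum count of 50 the members' share was the lower one, with 3 members, or 1.90%, against 3.77% of 2042 rows. Without the libraries numbered 1 it was also lower, at 0.633% against 0.96% of 7186 rows. With no term for the part no member was called, against 0.1% of rows. Deviations of same-numbered libraries from their part means correlated across the 158 members at 0.22, 0.33 and 0.53, and those of differently numbered libraries at -0.37 to 0.063, values that removing the mean of 3 libraries lowers. The DN1364 contigs did not pass (edgeR adjusted p from 0.40 to 0.47).

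The 3 members that passed were low in the libraries numbered 1. TRINITY_DN20008_c0_g1_i1 had 216.5, 463.6 and 345.7 CPM in red replicates 1 to 3 and 220.4, 578.5 and 498.7 CPM in white replicates 1 to 3 (edgeR adjusted p = 1.1e-04). TRINITY_DN6860_c1_g1_i1 had 283.4, 527.6 and 387.2 CPM in the red libraries and 285.9, 471.6 and 332.5 CPM in white (edgeR adjusted p = 0.0021). TRINITY_DN37355_c0_g1_i1 had 282.6, 434.1 and 422.5 CPM in the red libraries and 267.9, 574.0 and 425.6 CPM in white (edgeR adjusted p = 0.0047). In all 3, replicate 1 was the lowest and replicate 2 the highest in both parts. In log2 terms, replicate 2 exceeded replicate 1 by 1.41, 0.98 and 1.04 in these contigs. None of the 3 passed without the libraries numbered 1 (edgeR adjusted p from 0.091 to 0.35), or in a fit with no term for the part (0.31 to 0.43). TRINITY_DN6860_c1_g1_i1 was also lost without the libraries numbered 2 (0.30), and TRINITY_DN37355_c0_g1_i1 without those numbered 3 (0.0502). TRINITY_DN15832_c0_g1_i1 and TRINITY_DN8182_c0_g1_i5, next by p, had adjusted p-values of 0.058 and 0.081.

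In the comparison of white with red, which the rule used, the members' values are a description only. The limits on the ratio bound which members can pass, so the calls below are not read as results about them. The main fit of edgeR's quasi-likelihood test held no term for the replicate number. In it 3 of the 158 members had an adjusted p under 0.05, or 1.90%, beside 1.06% of all tested rows. All 3 had higher means in white. Other settings also called members lower in white. With no filter 8 members were called (5.06%, against 0.539% of rows), 2 of them lower in white. Without red replicate 2 there were 7 (4.43%, against 2.24% of rows), 1 of them lower in white. The 3 of the main fit were the isoforms i17, i13 and i12 of TRINITY_DN3829_c0_g1, near the upper limit. Their summed level was 1607 ± 62.6 CPM in red libraries and 2334 ± 311 CPM in white ones. Scaled by library totals, or without white replicate 3, these 3 no longer had an edgeR adjusted p under 0.05. With the replicate number as a block, 8 members did, beside 4.83% of all rows: these 3, the 3 members of TRINITY_DN8182_c0_g1, TRINITY_DN12744_c0_g1_i2 and TRINITY_DN20008_c0_g1_i1. The CPM ranges of the parts did not overlap in 45 members (28.5%), 39 of them lower and 6 higher in white, beside 19.0% of all tested rows, of which 1000 were lower and 329 higher. With TMM scaling the ranges did not overlap in 47 members (29.7%), 26 lower and 21 higher in white. Among all tested rows the share was 17.8%, with 619 lower and 626 higher. On column totals, the means of the parts differed by less than the larger SD of the parts in 87 members. The limits on the ratio favour this, and it was not counted over all tested rows, so it is not read as a result.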

How the data were processed

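Small RNA of dissected red and white petal regions was extracted with Trizol and NEBNext reagents were used for library construction, as the labels state. The authors deposited counts, whole numbers of reads per contig or microRNA name with no normalisation. Cutadapt and Bowtie2 are named in the submitters' processing notes; versions, read lengths kept, strand and the treatment of reads matching several contigs are not given in the sources used here. No contig sequence or annotation was used here.

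CPM is the count divided by the column total, times 1000000. Tests used edgeR 4.0.16 in R 4.3.3 (quasi-likelihood, robust, TMM, minimum count of 10), with Benjamini-Hochberg adjustment over 7001 rows and a threshold of 0.05. They were also run on simulated data with rows drawn independently, unlike contigs that can share reads. No support is drawn from that run. DESeq2 1.42.0 was an alternative. Trinity genes sum isoforms. No 2 libraries of a part agreed within sampling noise (lowest chi-square per degree of freedom 4.89).

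Libraries of the 2 parts share the numbers 1 to 3. After part means were removed, log2 values of same-numbered libraries correlated across tested rows at 0.20, 0.29 and 0.20, above the limit of 0.1 set for treating numbers as pairs. The labels do not say what a number marks. The main fit of white against red nevertheless held no term for the number and called 74 rows, 3 of them members. The fit with the number as a block, given as an alternative, called 338 rows, 8 of them members.

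Members, lists and tests were chosen with earlier results of these data known. Named contigs were the 10 most abundant members, the leading members of clusters with 3 or more, the 3 steadiest and the 3 most variable, the 5 with the smallest p by replicate number and those beside each limit of the rule. Others were named after their values were seen. Alternatives concerned scaling, the limits of the rule, filters, Trinity genes, blocking by replicate number and leaving out single libraries.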

Additional observations from a re-analysis of the deposited data

How the results depend on the processing

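Of the 158 members, 151 remained with TMM scaling (166 in all), 152 with medians and 144 to 154 with 1 library left out. The number of members was 77 from the 100 and 408 from the 500 most abundant contigs, as fewer or more contigs enter. Their share of reads in red and white was 68.3% and 63.4% from the 100, 77.0% and 71.4% from the 500 most abundant, 63.6% and 60.2% with ratios of 0.8 to 1.2, 76.6% and 70.8% by Trinity genes, and 74.2% in red with TMM. With 1 library left out it was 67.9% to 72.8% in red and 64.2% to 67.04% in white, lowest without red replicate 2. The median CV within white was 7.30% with TMM, 7.17% without DN1364 reads and 5.82% to 17.6% with 1 library left out, lowest without white replicate 2. Members lowest in white replicate 2 numbered 79 without DN1364 in the totals and 80 with TMM, against 135, settings chosen after seeing the data, as were the TMM counts of members by larger CV, by overlap and by side of equality.

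Rows called between white and red (74) were 154 with library totals, 254 with no filter, 338 with the replicate block and 35 to 176 with 1 library left out. The members among them were 8 with the block (5.06%, against 4.83% of rows) and 8 with no filter (0.539% of rows), against 3. There were 7 without red replicate 2 (2.24% of rows) and 2 without red replicate 1 (0.590% of rows). These counts of members are a description only, since the rule used this ratio. Without red replicate 1 there were 46 rows, without red replicate 2 there were 176, and without white replicate 3 there were 35. Rows called by replicate number (134) were 89 with library totals, 71 by DESeq2, 244 with no filter, 77 at a minimum count of 50, 88 by Trinity genes, 7 with no term for the part and 46 to 127 with both libraries of 1 number left out, lowest without the libraries numbered 3. With no term for the part the 3 members did not pass. The members among them were 3 (1.90%) with library totals, by DESeq2 and at a minimum count of 50, against 1.27%, 1.01% and 3.77% of rows. With DN1364 left out 3 members were called, against 1.89% of rows. By Trinity genes the unit was the gene, and 3 of the members' 97 genes were called, against 1.38% of 6399 rows. With no filter 11 members were called (6.96%, against 0.518% of rows). Without the libraries numbered 1, 2 and 3 there were 1, 9 and 2 (0.633%, 5.70% and 1.27%, against 0.960%, 1.72% and 0.615% of rows). Apart from the sets of contigs entering, the causes were not tested.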
